A study of Homo sapiens with 20 samples.

Results

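The small nucleolar RNA (snoRNA) host genes examined here were SNHG1, SNHG3, SNHG5, SNHG6, SNHG7, SNHG8, SNHG12, SNHG15, GAS5 and ZFAS1. They were selected by gene symbol, on a rule that cited lower SNHG1 after doxycycline, and all 10 were found among the 57773 genes of both count tables. RNA-seq had been carried out on 20 samples of LNCaP cells, a human prostate cancer line, and its derivatives. In parental LNCaP cells, 2 samples received a non-targeting siRNA (siNTC) and 2 received an siRNA pool against EHMT1 (siEHMT1), each at 20 nM for 2 days. The other 16 samples came from 4 stable LNCaP-tet-EHMT1 lines, made with an inducible lentiviral vector that encodes V5-tagged EHMT1 as wild type (WT) or with lysine-to-arginine changes (K450R, K451R or both, K450RK451R). Each line was given vehicle (Veh) or 0.25 μg/mL doxycycline (Dox) for 2 days, with 2 numbered samples per condition. Veh cells carried the same vector, and all cells kept their own EHMT1, a histone H3 lysine 9 methyltransferase.

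The 2 numbered samples of each stable-line condition differed by no more than sampling noise, with chi-square values of 0.995 to 1.02 for each degree of freedom, and were summed and counted as 1 sample. A line therefore had 1 Veh and 1 Dox value, and the 4 lines served as the replicates of the Dox effect. Each line induces a different form of EHMT1, so they replicate only what the 4 forms share. No line without an EHMT1 insert was included, so doxycycline itself and EHMT1 induction cannot be told apart. The 2 siNTC samples (61.6) and the 2 siEHMT1 samples (13.4) did differ. Totals were 5593400 to 12438006 counts per siRNA sample and 8436791 to 12407739 per summed stable-line condition. EHMT1 stood at 87.8 and 83.6 CPM (counts scaled to library size, with TMM factors) in siNTC and at 29.2 and 30.7 CPM in siEHMT1, and it rose from 71.7 to 88.9 CPM in Veh to 663 to 842 CPM in Dox. The second siNTC sample had 10.0% of its counts in ribosomal RNA-like pseudogenes, against 0.0531% to 1.00% in the other 3 siRNA samples. All 10 LNCaP markers on a fixed list passed the filter on low counts in both tables. Of 9 listed markers of other cell types in the tables, 2 passed it in the siRNA table and 1, COL1A1, in the stable-line table.

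A snoRNA host gene is transcribed by RNA polymerase II and carries snoRNAs in its introns, which are released from the excised introns after splicing. Box C/D snoRNAs guide ribose methylation and box H/ACA snoRNAs guide pseudouridylation, mainly on ribosomal RNA, so these genes supply part of the machinery of ribosome production. The spliced host RNAs code for no conserved protein, many are removed by nonsense-mediated decay, and several begin with the pyrimidine tract that also marks the mRNAs of ribosomal proteins.

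By RefSeq annotation (GRCh38.p14), the 10 genes hold 36 snoRNA genes, of which 25 are box C/D and 10 are box H/ACA by their symbols. SNHG1 has 8 of the box C/D type and GAS5 has 10, together with 1 of the H/ACA type. ZFAS1 has 3, SNHG5 has 2 and SNHG6 has 1, all box C/D. SNHG3 and SNHG7 have 2 H/ACA snoRNAs each, and SNHG8 and SNHG15 have 1 each. SNHG12 has 3 of the H/ACA and 1 of the C/D type.

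The start regions of 8 members were found among the RefSeq promoter sequences (GRCh38.p14), and they are shown because the transcripts are read together below. SNHG1 is given from 250 bases before to 50 bases after the annotated start (chr11:62855836-62856135, minus strand), and the others from 40 bases before the start to 20 bases from it. Capitals mark TATAA or TATTTAA with its first base 20 to 40 bases before the start, and a C followed by at least 4 pyrimidines that begins within 10 bases of the start. Both were searched on the strand of the gene only, since each is defined by its direction to the start.
SNHG1: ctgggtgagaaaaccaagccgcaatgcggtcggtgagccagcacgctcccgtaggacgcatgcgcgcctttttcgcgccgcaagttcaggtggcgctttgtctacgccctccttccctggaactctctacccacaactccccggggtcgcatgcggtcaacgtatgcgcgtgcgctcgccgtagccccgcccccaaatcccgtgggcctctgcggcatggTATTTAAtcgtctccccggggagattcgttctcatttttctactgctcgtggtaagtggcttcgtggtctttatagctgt
SNHG12: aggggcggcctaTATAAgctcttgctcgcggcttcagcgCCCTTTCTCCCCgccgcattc
GAS5: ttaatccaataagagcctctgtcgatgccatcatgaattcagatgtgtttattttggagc
ZFAS1: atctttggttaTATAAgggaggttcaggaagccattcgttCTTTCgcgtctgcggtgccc
SNHG5: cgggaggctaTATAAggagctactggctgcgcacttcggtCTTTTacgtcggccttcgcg
SNHG3: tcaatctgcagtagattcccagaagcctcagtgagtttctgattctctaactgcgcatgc
SNHG7: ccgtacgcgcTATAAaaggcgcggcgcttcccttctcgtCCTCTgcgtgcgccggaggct
SNHG8: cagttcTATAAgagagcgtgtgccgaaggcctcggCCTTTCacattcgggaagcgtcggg
The stretches lie at chr1:28581854-28581913 (SNHG12, minus strand), chr1:173869026-173869085 (GAS5, minus), chr20:49278602-49278661 (ZFAS1, plus), chr6:85678714-85678773 (SNHG5, minus), chr1:28505903-28505962 (SNHG3, plus), chr9:136728165-136728224 (SNHG7, minus) and chr4:118278722-118278781 (SNHG8, plus). A TATA-type motif was present in 6 of the 8, against 4.24% of 35116 promoters of the same length, and began 28 to 34 bases before the start. Of these 6, SNHG1 alone had the TATTTAA form. A pyrimidine run was present in 5 of the 8, against 31.4% of all promoters, and the longest, 12 bases, was that of SNHG12. Neither feature was found at the annotated starts of SNHG3 and GAS5. These matches describe letters in a window and were not tested as sites.

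The level of the 10 transcripts was next compared between genes as CPM per kilobase of exon, with exon lengths from GENCODE 44 on GRCh37 since the annotation used for counting is not given in the sources used here. In the 4 Veh conditions SNHG3 was highest (188 CPM per kilobase of merged exons, range 170.5 to 215), followed by SNHG1 (47.8, range 36.7 to 56.2), GAS5 (31.7), ZFAS1 (25.4) and SNHG8 (19.7). SNHG6 (14.3), SNHG7 (7.63), SNHG12 (5.28), SNHG15 (4.95) and SNHG5 (1.23) followed. On this length only the ranges of SNHG12 and SNHG15 overlapped with each other as neighbours in the order. With the length of the canonical transcript in its place, SNHG3 stayed first in Veh, and GAS5 and SNHG1 changed places with overlapping ranges. The neighbours from SNHG8 down to SNHG5 overlapped one after another, so the order of these genes depended on the gene model. In siNTC, SNHG3 was first on merged exons (58.5), whereas GAS5 was first on the canonical length (134, against 109 for SNHG3). The SNHG3 count may include reads of a snoRNA copy, as described below.

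**Figure D1:**
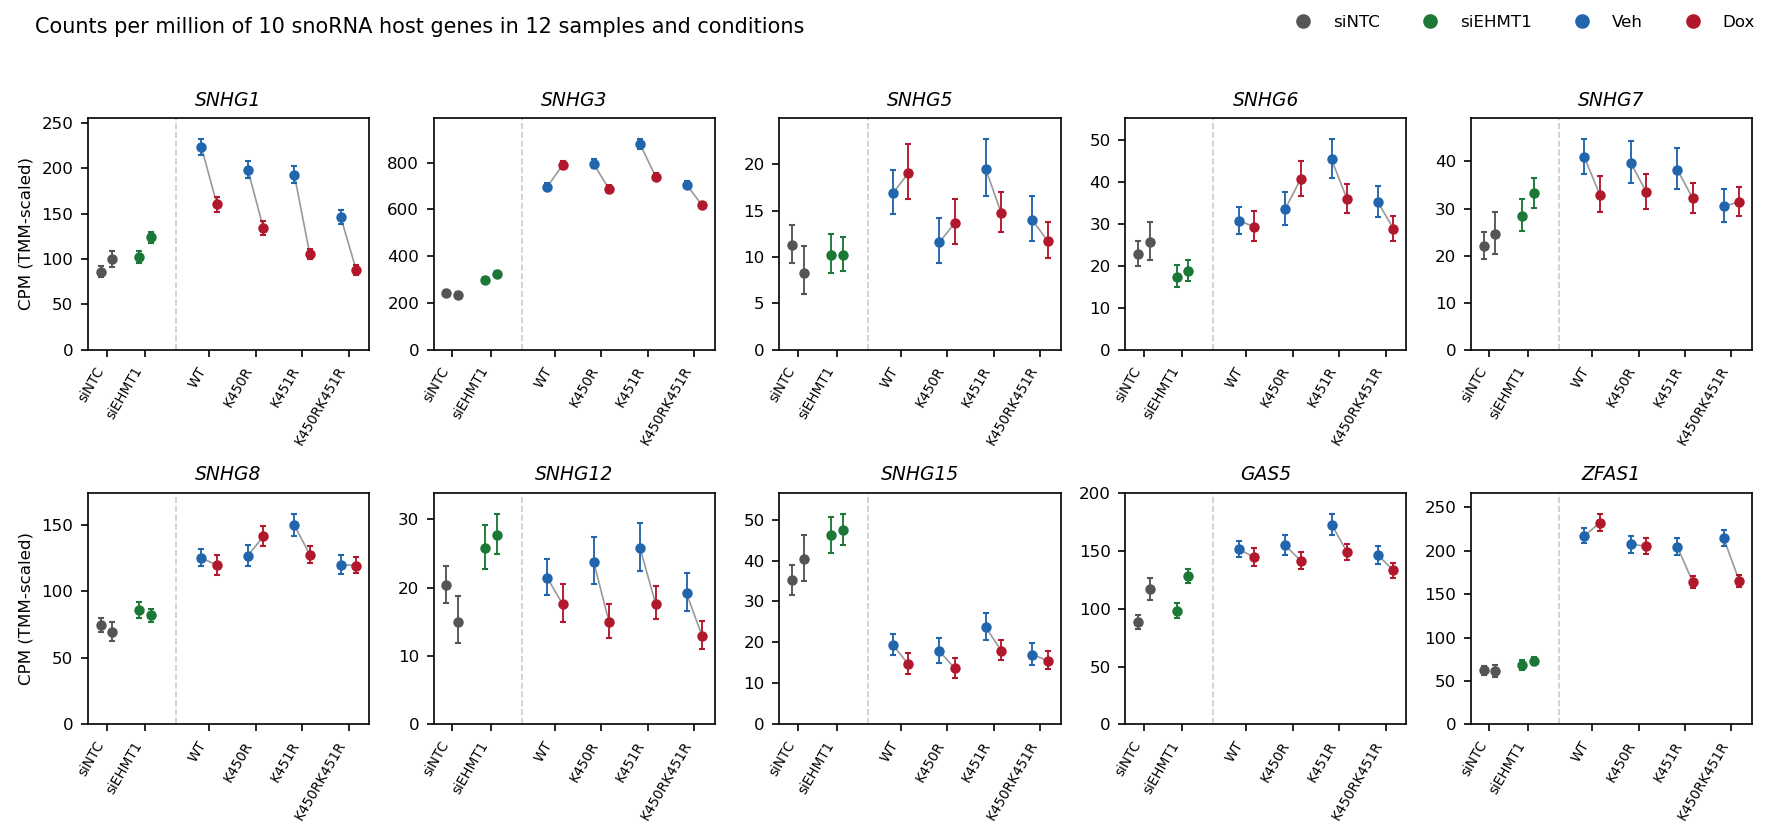
CPM (TMM-scaled, linear axis from 0) of the 10 snoRNA host genes in the 4 siRNA samples and the 8 summed stable-line conditions, with 95% Poisson counting intervals as bars and a grey line joining Veh and Dox of a line. SNHG1 is lower in Dox than in Veh in each of the 4 lines, and SNHG6 is the one gene with both siEHMT1 samples below both siNTC samples.

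The members together took 0.0630% to 0.0875% of all counts in the siRNA samples and 0.134% to 0.170% in the stable-line conditions. The tables were normalized separately, so the following levels are set side by side without a test. The mean CPM over Veh was 3.41 times that over siNTC for ZFAS1, 3.22 times for SNHG3 and 2.05 times for SNHG1. SNHG15, a single H/ACA host, went the other way at 0.517 times. The share of counts in a list of structured and nuclear RNAs (RPPH1, RMRP, the RN7SL and 7SK RNAs, MALAT1 and NEAT1) was 3.43% to 3.77% in the siRNA samples and 8.90% to 10.3% in the stable-line conditions, and its part in these differences was not tested.

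SNHG1, the host of the box C/D cluster from SNORD25 to SNORD31 with SNORD22, was measured at 223 CPM in WT Veh and 160.1 CPM in WT Dox. It stood at 198 and 134 CPM in K450R Veh and Dox. The corresponding values were 193 and 105 CPM in K451R, and 146 and 87.8 CPM in K450RK451R. Each line was thus lower in Dox, whereas the 2 groups overlapped across lines, since WT Dox lay above K450RK451R Veh. The log2 fold change of Dox over Veh was -0.48 in WT (95% counting interval -0.57 to -0.39), -0.57 in K450R (-0.68 to -0.46), -0.73 in K450RK451R (-0.85 to -0.62) and -0.88 in K451R (-0.98 to -0.77). The mean over the 4 lines was -0.66 ± 0.18 (SD, n = 4). The intervals cover counting error only, and with 1 sample per line and treatment the difference between lines was not tested. SNHG1 is the gene whose behaviour in this contrast led to the choice of the members, so these values are a description and carry no p-value. In bulk RNA, fewer transcripts per cell and a change in the mix of cells cannot be told apart.

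Among the remaining hosts with box C/D snoRNAs, GAS5 was also lower in Dox in every line, by a smaller amount. Its Veh and Dox values were 152 and 145 CPM in WT, 155 and 142 CPM in K450R, 173 and 149 CPM in K451R, and 146 and 133 CPM in K450RK451R, a mean log2 fold change of -0.14 ± 0.06 (SD, n = 4 lines). ZFAS1 was close to level in K450R (207 and 205 CPM), higher in WT Dox (217 and 232 CPM) and lower in K451R (205 and 164 CPM) and K450RK451R (214 and 165 CPM). SNHG5 was higher in Dox in WT and K450R and lower in the other two, within 11.6 to 19.4 CPM throughout. SNHG6 was higher in K450R Dox (33.5 and 40.7 CPM) and lower in the other 3 lines, with a mean log2 fold change of -0.10 ± 0.28 (SD, n = 4 lines).

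SNHG12, the mixed host, was the second most changed. It stood at 21.4 and 17.6 CPM in WT Veh and Dox, 23.8 and 14.9 CPM in K450R, 25.8 and 17.7 CPM in K451R, and 19.2 and 12.9 CPM in K450RK451R. It was the single member for which all 4 Dox values lay below all 4 Veh values, where 2.32% of all 14105 genes tested did so. No member had all 4 Dox values above all 4 Veh values, where 2.27% of genes did. The mean log2 fold change was -0.52 ± 0.16 (SD, n = 4 lines). Among the H/ACA hosts, SNHG15 stood at 19.4 (Veh) and 14.7 CPM (Dox) in WT, 17.9 and 13.7 CPM in K450R, 23.7 and 18.0 CPM in K451R, and 17.0 and 15.6 CPM in K450RK451R, a mean of -0.33 ± 0.13 (SD, n = 4 lines). SNHG7 was lower in 3 lines (-0.31, -0.25 and -0.25) and at 0.05 in K450RK451R on the log2 scale. SNHG8 ran from -0.23 in K451R to 0.15 in K450R, with a mean of -0.04. The means of SNHG5 and SNHG8 changed sign with library size alone and without K451R, and that of SNHG5 also without K450RK451R.

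Altogether 4 of the 10 members (SNHG1, SNHG12, SNHG15 and GAS5) were lower in Dox in all 4 lines, where 10.1% of all genes tested were. Among these 4, the log2 counting interval lay below 0 in every line for SNHG1 alone. It included 0 in WT for SNHG12 (-0.58 to 0.01) and GAS5 (-0.17 to 0.04), and in K450RK451R for SNHG15 (-0.43 to 0.17). With library size alone in place of TMM scaling, which raised the median log2 fold change of all genes to 0.13 in K451R and 0.14 in K450RK451R, SNHG1 and SNHG12 were the 2 members lower in every line. The members' median was -0.14, beside 0.01 for all genes tested. The median of the members differed between lines, at -0.07 in WT, -0.17 in K450R, -0.33 in K451R and -0.23 in K450RK451R. Since the choice of members rests on this contrast, nothing is read from these counts.

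**Figure D2:**
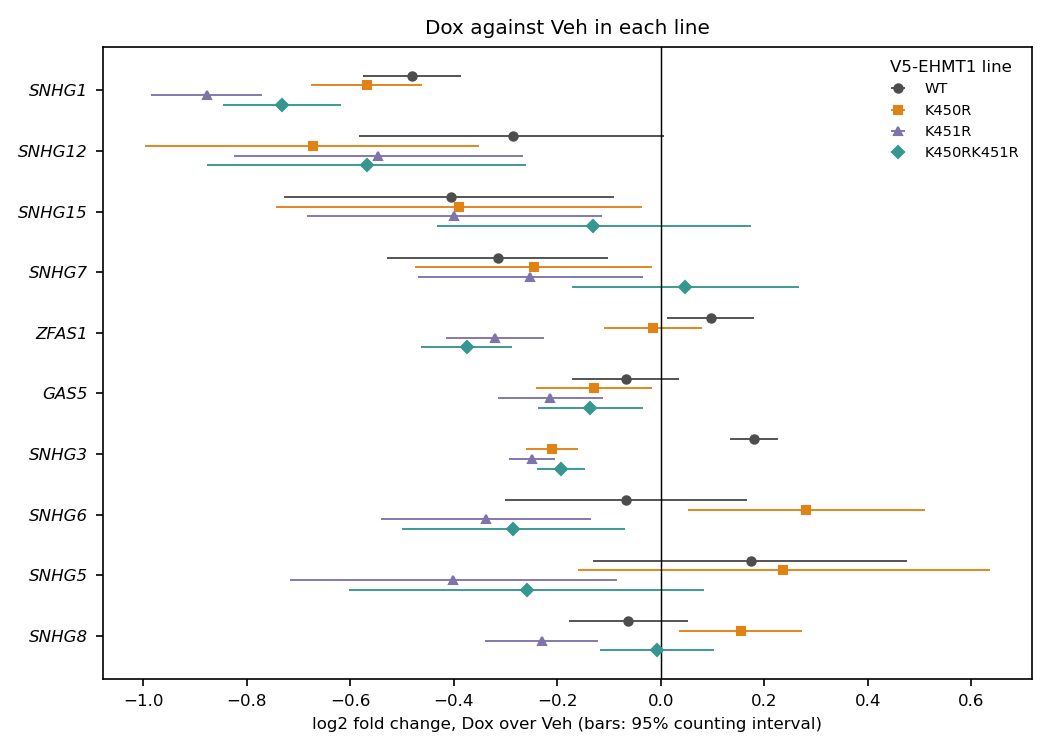
Log2 fold change of Dox over Veh for each of the 10 genes, ordered by the mean over lines, in the 4 V5-EHMT1 lines (symbols), with 95% counting intervals as bars. SNHG1 lies between -0.88 and -0.48 in the 4 lines, and SNHG3 is at 0.18 in WT and between -0.25 and -0.19 in the 3 mutant lines.

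Several nuclear and structured RNAs were lower in the same contrast. Of the 8 tested rows of that list, 6 were lower with Dox in all 4 lines, where 10.1% of all genes were. In the edgeR quasi-likelihood fit 4 fell, with p-values adjusted over all genes by Benjamini-Hochberg (2.11% of 14105 genes were called, 1.51% lower). RPPH1 differed in direction between lines. Its Veh and Dox values were 35693 and 41798 CPM in WT, 29238 and 32000 CPM in K451R, and 36165 and 33279 CPM in K450R. NEAT1, the scaffold of paraspeckles, had a mean log2 fold change of -1.54 (from -2.15 in WT to -0.44 in K450RK451R), and MALAT1, a nuclear speckle RNA, one of -0.92. The signal recognition particle RNA genes RN7SL1 (-0.28) and RN7SL2 (-0.26) also fell, and both calls were lost without K451R or without K450RK451R, with adjusted p-values of up to 0.243, and that of RN7SL2 also without K450R. RN7SK, at -0.20, had an adjusted p of 0.063. The share of counts from mitochondrial genes was lower in Dox in 3 lines (13.0% and 9.76% in WT, 14.4% and 10.4% in K451R, 12.3% and 8.04% in K450RK451R) and higher in K450R (12.05% and 13.7%). The part of these RNAs in the values of SNHG1 and SNHG12 was not tested. The markers of other cell types KRT5, TP63, COL1A2, PTPRC and CHGA were at 0 in all samples, and COL1A1 lay between 30.6 and 40.8 CPM in the stable lines, with a Dox value of -0.16 (adjusted p = 0.411). Of 8 LNCaP markers reported here, 3 rose with Dox in the same test and 0 fell, where 0.603% of all genes were called higher, with a median of 0.06. TMPRSS2, a prostate serine protease, was at 0.22 (adjusted p = 0.0177), a call lost in 3 of 12 alternative settings. The part of these markers in the values of the members was not tested.

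SNHG1 (ENSG00000255717, chr11:62619450-62623425 on GRCh37, minus strand) lies head to head with SLC3A2, which encodes the heavy chain of amino acid transporters at the cell surface. The outermost starts of the pair are 51 bases apart on opposite strands in GENCODE 44, and the nearest RefSeq start of SLC3A2 is 224 bases from that of SNHG1, inside the stretch printed above. SLC3A2 was measured at 326 and 332 CPM in WT Veh and Dox, 299 and 245 CPM in K450R, 279.7 and 221 CPM in K451R, and 249 and 196 CPM in K450RK451R. It was lower with Dox in the 3 mutant lines and slightly higher in WT, where SNHG1 was lower. Its mean log2 fold change was -0.24, against -0.66 for SNHG1, and it fell over lines by the quasi-likelihood test with an adjusted p of 0.034. That call was lost in 6 of 12 alternative settings, among them DESeq2 (0.0722), library size alone (0.141) and leaving out K450R (0.201), K451R (0.230) or K450RK451R (0.174). In the siRNA samples SLC3A2 had a log2 fold change of 0.12 with an adjusted p of 0.722.

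For most other members the count itself shares ground with another gene. In GENCODE 44 the exons of 6 members overlap a gene on the other strand, and the exons of SNHG3 and SNHG5 overlap a gene on their own. The libraries were stranded, yet the strand setting of the counting is not given in the sources used here. Reads of partners on opposite strands may therefore not be separated. For partners on the same strand, such as RCC1 with SNHG3, no strand setting separates reads of shared exon bases. RCC1 starts 37 bases from SNHG3 and lay between 49.7 and 109 CPM in all samples. SNHG7 and FAM69B, which overlap by 3377 bases, had similar levels (22.0 to 40.9 CPM and 31.4 to 47.8 CPM). SNHG12 and TRNAU1AP overlap by 8 bases. ZNFX1, whose start is 248 bases from that of ZFAS1 on the other strand, lay between 56.1 and 83.3 CPM in all samples, while ZFAS1 lay between 61.5 and 232 CPM. RP11-321N4.5, which shares 28243 bases and the strand of SNHG5, was at 0 in all samples. With Dox, the overlapping genes RCC1, MCMDC2, FAM69B, TRNAU1AP, ZBTB37 and ZNFX1 did not pass the test over lines, with adjusted p-values of 0.271 to 0.970.

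SNHG3 (chr1:28832492-28837404 on GRCh37, plus strand) needs a separate account because it contains the SNORA73 pair, H/ACA snoRNAs that act in the cleavage of ribosomal RNA precursors. SNORA73B had a row of its own in the count tables, whereas for the other copy no row was found at its place. By alignment that copy lies inside a 1810-base exon of an SNHG3 transcript with a retained intron (chr1:28832863-28834672). Both are printed from the GRCh37 plus strand, with the bases that differ in capitals.
SNORA73B (chr1:28835071-28835274): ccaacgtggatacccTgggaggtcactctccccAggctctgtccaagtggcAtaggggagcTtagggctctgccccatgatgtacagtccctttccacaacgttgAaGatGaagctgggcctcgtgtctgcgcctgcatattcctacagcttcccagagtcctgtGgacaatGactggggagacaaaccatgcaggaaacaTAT
SNORA73 copy in the SNHG3 exon (chr1:28833878-28834083): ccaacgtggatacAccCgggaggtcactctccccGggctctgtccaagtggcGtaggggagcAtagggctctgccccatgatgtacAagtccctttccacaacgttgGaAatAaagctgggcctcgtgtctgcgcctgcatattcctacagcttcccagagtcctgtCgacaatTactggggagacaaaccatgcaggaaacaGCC
The copies were identical at 192 of 206 aligned positions (93.2%), and their longest identical run was 54 bases. If the annotation used for counting holds that exon and no separate entry for the copy, reads of the snoRNA copy enter the SNHG3 count. The exons of RCC1, which starts 37 bases from SNHG3 on the same strand, also overlap those of SNHG3. SNHG3 values are therefore uncertain as a measure of the host RNA.

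SNHG3 and SNORA73B were close in several contrasts. SNHG3 was at 697 and 789 CPM in WT Veh and Dox and SNORA73B at 461 and 485 CPM. In K450R the values were 794 and 687 CPM for SNHG3 and 491 and 422 CPM for SNORA73B. In K451R they were 880.0 and 741 CPM for the host and 570.3 and 441 CPM for the snoRNA. In K450RK451R SNHG3 was lower in Dox (706 and 618 CPM) and SNORA73B was not (402 and 423 CPM). WT was the line in which SNHG3 was higher with Dox, at a log2 fold change of 0.18 (95% counting interval 0.13 to 0.23), while the mutant lines lay between -0.25 and -0.19.

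**Figure D3:**
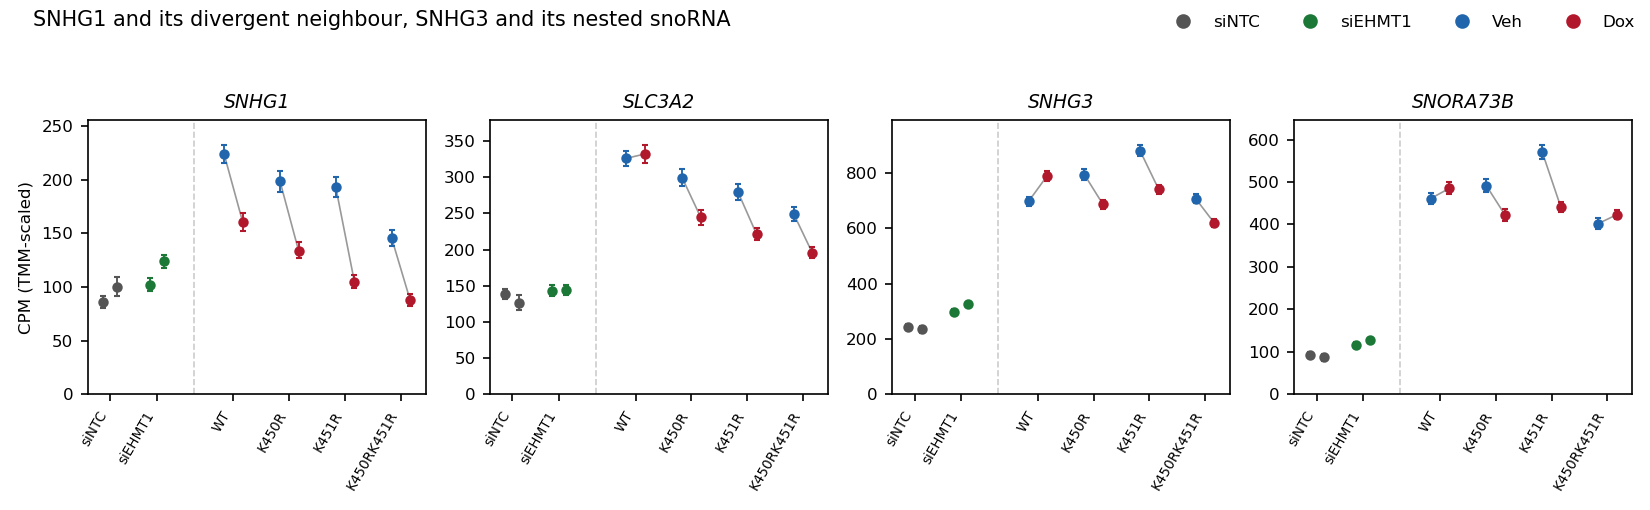
CPM (TMM-scaled, linear axes from 0) of SNHG1, its divergent neighbour SLC3A2, SNHG3 and the snoRNA SNORA73B inside it, in the 4 siRNA samples and 8 stable-line conditions, with 95% Poisson intervals as bars. SLC3A2 is at 326 and 332 CPM in WT Veh and Dox, and SNORA73B lies between 402 and 570.3 CPM in the stable lines and between 87.2 and 127 CPM in the siRNA samples.

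The other nested snoRNAs with rows of their own were SNORD99 in SNHG12, SNORD78 in GAS5, and SNORD12C, SNORD12B and SNORD12 in ZFAS1. They had at most 50 counts in any sample, against 441 to 5464 counts for SNORA73B. SNORD12C is printed as an example of the box C/D form, with its C box and D box in capitals (chr20:47895477-47895565 on GRCh37, plus strand).
SNORD12C: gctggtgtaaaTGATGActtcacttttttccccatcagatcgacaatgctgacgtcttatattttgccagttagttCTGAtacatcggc
Each of these ZFAS1 snoRNAs was at 4.35 CPM or less in all samples. The counts of SNORD12 went from 15 (Veh) to 4 (Dox) in K450R, from 9 to 1 in K451R, from 9 to 7 in WT and from 2 to 6 in the double mutant line. The log2 intervals from counting error alone were below 0 in K450R (-4.17 to -0.47) and K451R (-9.20 to -0.90) and included 0 in the other two lines. For SNORD12B and SNORD12C the intervals included 0 in all 4 lines. Rows with the symbols of the remaining snoRNAs were not matched here, since the GRCh37 annotation places no such snoRNA inside the members.

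The rule for the members did not cite the contrast of siEHMT1 with siNTC, and it was tested. The members were nevertheless chosen with earlier results of these data known. None of the 10 members passed an adjusted p of 0.05 in the edgeR quasi-likelihood fit, adjusted by Benjamini-Hochberg over 14532 genes, of which 0.131% were called. At an unadjusted p under 0.05 there were 7 members, 6 higher and 1 lower, where 9.55% of all genes passed that level, 4.46% higher and 5.09% lower. By DESeq2 there were 0 and 4 members. Both siEHMT1 samples lay above both siNTC samples for 7 members, where 19.9% of all genes did so, and below both for SNHG6 alone, where 19.8% did so. The members' median log2 fold change was 0.25, beside 0.00 for all genes tested.

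SNHG12 had the largest fitted difference of the 10 members in this contrast, at 20.3 and 15.0 CPM in siNTC and 25.8 and 27.7 CPM in siEHMT1. Its log2 fold change was 0.58 ± 0.16 (SE) with an adjusted p of 0.188, and without the first siNTC sample it was 0.83 with an adjusted p of 0.025. It ran from 0.40 to 0.83 when each sample was left out in turn, and its adjusted p from 0.025 to 0.801 over the alternatives that gave one. TRNAU1AP, the gene that meets SNHG12 end to end, had 0.60 with an adjusted p of 0.124. SNHG3 was measured at 244 and 234 CPM in siNTC and 299 and 325 CPM in siEHMT1, a log2 fold change of 0.38 ± 0.09 (SE) with an adjusted p of 0.0919. Its nested SNORA73B had 0.43 with an adjusted p of 0.080. SNHG1 stood at 86.1 and 99.8 CPM in siNTC and at 102 and 124 CPM in siEHMT1, so that the groups were separate by a narrow gap. Its log2 fold change was 0.28 (95% confidence interval 0.06 to 0.51) with an adjusted p of 0.394.

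For SNHG7 the samples were at 22.0 and 24.5 CPM in siNTC and 28.5 and 33.2 CPM in siEHMT1, and for SNHG15 at 35.1 and 40.3 CPM and 46.1 and 47.4 CPM. The log2 fold changes were 0.41 and 0.31. SNHG8, at 74.9 and 69.4 CPM in siNTC and 85.9 and 81.8 CPM in siEHMT1, had 0.22. ZFAS1 had 0.19, with siNTC at 62.1 and 61.5 CPM and siEHMT1 at 68.2 and 72.7 CPM. None of these 4 had an adjusted p under 0.05. GAS5 overlapped between groups (88.5 and 117 CPM against 98.2 and 128 CPM), as did SNHG5 (11.2 and 8.3 CPM against 10.2 and 10.2 CPM). SNHG6 was the exception in direction, at 22.9 and 25.7 CPM in siNTC and 17.4 and 18.8 CPM in siEHMT1, with a log2 fold change of -0.42 (95% confidence interval -0.73 to -0.11) and an adjusted p of 0.348.

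**Figure D4:**
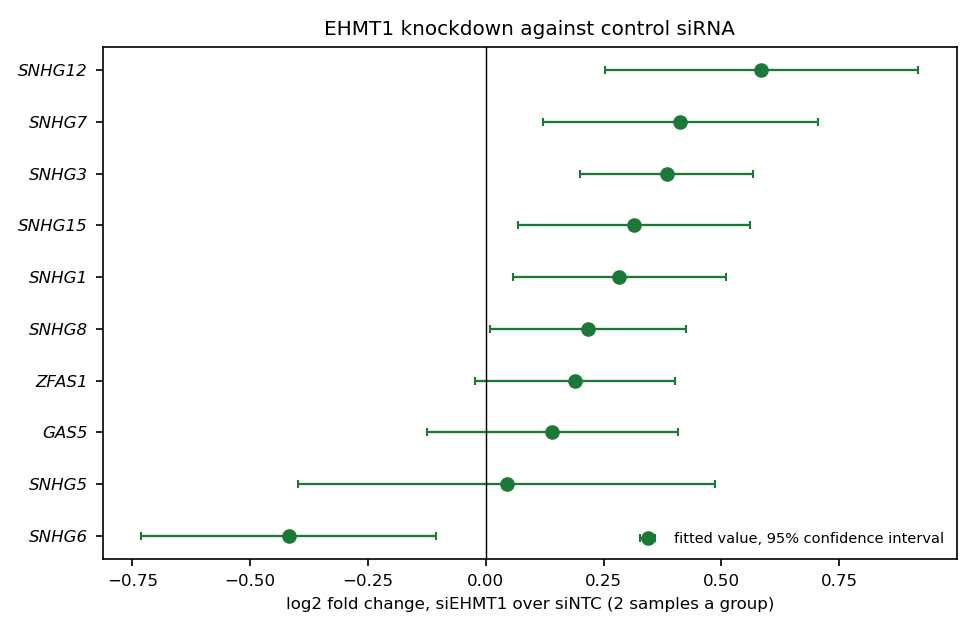
Fitted log2 fold change of siEHMT1 over siNTC for the 10 genes (points, 2 samples per group) with 95% confidence intervals as bars, ordered by value. SNHG12 is at 0.58 and SNHG6 at -0.42, and no gene passed the adjusted test.

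SNHG12, SNHG1, SNHG15 and SNHG7, the 4 members with the lowest mean fold change in Dox, had siEHMT1 values of 0.58, 0.28, 0.31 and 0.41 on the log2 scale. Their Dox means were -0.52, -0.66, -0.33 and -0.19. Positive siEHMT1 values were not particular to these 4, since 9 of the 10 members had one, where 49.6% of all genes did. SNHG3, with a Dox mean of -0.12, was at 0.38 in siEHMT1. The 2 contrasts come from separate tables with separate controls, their difference was not tested, and the siEHMT1 values did not pass the adjusted test. NEAT1 (0.56, adjusted p = 0.319) and MALAT1 (0.49, adjusted p = 0.432) also had positive siEHMT1 values, and in the second siEHMT1 sample they stood at 511 and 1667 CPM against 257 and 788 CPM in the first. Their part in the siRNA values of the members was not tested.

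Related gene lists were then examined by the same fits. Of 10 other genes in the tables listed as noncoding snoRNA hosts, 8 passed the filter. A match of RefSeq positions found a snoRNA inside 9 of the 10. In either contrast 0 of the 8 were called by the quasi-likelihood test. At an unadjusted p under 0.05, 1 was higher in siEHMT1 (SNHG17, 0.42, adjusted p = 0.456). Their medians were -0.02 in siEHMT1 and 0.02 in Dox, and 0 of the 8 were lower in all 4 lines. The most abundant were SNHG16 (166 CPM in siNTC, 79.6 CPM in Veh), SNHG14, DANCR and EPB41L4A-AS1. DANCR had a mean Dox log2 fold change of 0.18 (adjusted p = 0.159) and EPB41L4A-AS1 one of -0.21 (adjusted p = 0.180).

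Of 43 genes listed as protein-coding snoRNA hosts and tested, a match of RefSeq positions found a snoRNA inside 41. With Dox, 3 of the 43 fell and 0 rose, where 1.51% of all genes were called lower. In all 4 lines 11 were lower, where 10.1% of all genes were, and the median was -0.03. Those that fell were EIF4A1, a translation initiation helicase whose row was low (9.95 CPM in Veh, mean log2 fold change -1.09), PRPF39, a splicing factor (-0.33), and RPSA, a ribosomal protein (-0.22). These 3 were named after their values were seen, and each call was lost in 2 (EIF4A1) or 6 (PRPF39 and RPSA) of 12 alternative settings. The abundant hosts EEF2 (0.00) and GNB2L1 (-0.01) did not pass the test. In siEHMT1 none of the 43 was called, with 4 higher and 3 lower at an unadjusted p under 0.05.

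Of 76 ribosomal protein genes, 3 fell (RPSA, RPS3A and RPL39) and 0 rose with Dox, against the same 1.51%, 25 were lower in all 4 lines, against the same 10.1%, and the median was -0.07. The calls of RPS3A and RPL39 were lost in 3 and 4 of the 12 alternative settings. In siEHMT1 65 of the 76 had positive fitted values, where 49.6% of all genes did, and 43 had both siEHMT1 samples above both siNTC samples, where 19.9% of all genes did, with a median of 0.12. In that contrast 1 ribosomal protein gene fell (RPS16, -0.55, adjusted p = 0.0306) and 0 rose. RPS6 went from 1085 to 1252 CPM (0.21, adjusted p = 0.511). Of 21 other mRNAs with a 5′ pyrimidine tract, 1 fell with Dox (HNRNPA1, -0.37, a call lost in 5 of the 12 settings) and 0 were called in siEHMT1, with medians of -0.02 and 0.01. Of 17 factors of nonsense-mediated decay, which removes many spliced host RNAs, 0 were called in either contrast. UPF1, the central helicase, was at -0.03 with Dox and -0.09 in siEHMT1, and EIF4A3, an exon junction protein, at -0.22 with Dox (adjusted p = 0.098). Of 17 genes for snoRNP assembly, 0 were called in either contrast. FBL, the methyltransferase of box C/D particles, was at -0.10 with Dox (adjusted p = 0.535). At an unadjusted p under 0.05 in siEHMT1, 0 of the decay factors and 1 of the assembly genes (NOLC1, -0.22) passed. Genes in these lists that were named for their calls were chosen after their values were seen.

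Finally, genes were ranked by how closely their log2 CPM followed SNHG1 over the 8 stable-line conditions, among 6874 genes with a mean of at least 20 CPM. The closest were CLK1 (Pearson r = 0.985), CLK3 (0.982), UQCRH (0.980), F11R (0.978) and PSRC1 (0.977). CLK1 and CLK3 are kinases of splicing factors. CLK1 had a mean log2 fold change of -0.57 with Dox, SNHG1 one of -0.66 and UQCRH one of -0.11. In the siRNA samples CLK1 was at -0.03 and CLK3 at 0.14, with adjusted p-values of 0.979 and 0.693. Among the 7 members above the same level, r with SNHG1 ran from 0.19 for SNHG6 to 0.82 for SNHG7, and the SNHG7 value ranked 440 among all genes. The conditions share lines and scaling, so these coefficients describe likeness over 8 points and were given no p-value.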

How the data were processed

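Total RNA of LNCaP cells had been made into stranded TruSeq libraries, sequenced and aligned by the authors to hg19. The submitters' processing notes name FastQC 0.11.9, STAR 2.7.2 and featureCounts 1.6.4. The annotation release and the strand setting are not given in the sources used here. The deposited values are raw counts per gene for 57773 genes in 2 tables, 1 with the 4 siRNA samples and 1 with the 16 of the stable lines.

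Counts were analysed here in R 4.3.3 with edgeR 4.0.16 (filterByExpr, TMM scaling, quasi-likelihood test, Benjamini-Hochberg adjustment over all genes tested, threshold 0.05). The siRNA fit had no covariate. The Dox fit used the 8 summed conditions with line as a block. Whether same-numbered samples deviate together was checked (r = 0.00095 in the siRNA table, -0.043 to 0.035 in the other), and the numbers were not taken as pairs. Nothing in the labels says that samples came from separate cultures, so p-values measure the spread between these samples. Intervals per condition are exact Poisson or ratio intervals at 95% and cover counting error only. The scripts were tested on simulated data. DESeq2 1.42.0, limma 3.58.1 and other scalings and filters were run as alternatives. The members and gene lists were chosen with earlier results of these data known. Named genes were all members, up to 4 genes with the highest mean CPM of each list, nested snoRNAs with at least 20 counts in all, overlapping or divergent neighbours (starts within 1000 bases) and the 5 genes most like SNHG1. Sequences are from RefSeq (GRCh38.p14) and the GRCh37 genome. The start regions of 8 members matched, and SNHG6 and SNHG15 are named only. Some genes that the naming rule covers are not reported here.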

Additional observations from a re-analysis of the deposited data

Results flagged for a closer look

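Among 30 groups of 4 values examined, 2 held a value far from the other 3, and chance gives about 1 in 20. For SNHG3 the log2 fold change of Dox over Veh in WT was 0.18, apart from those of the 3 mutant lines. For SNHG15 the value in K450RK451R was -0.13, apart from -0.41, -0.39 and -0.40 in the other lines.

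In 4 members the lines moved in opposite directions beyond counting error, and the difference between lines was not tested. SNHG3 was at 0.18 in WT and at -0.21, -0.25 and -0.19 in K450R, K451R and K450RK451R. ZFAS1 was at 0.10 in WT and at -0.32 and -0.37 in K451R and K450RK451R. SNHG6 was at 0.28 in K450R and at -0.34 and -0.28 in K451R and K450RK451R. SNHG8 was at 0.15 in K450R and at -0.23 in K451R.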

How the results depend on the processing

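With 2 samples per siRNA group and 1 summed sample per line and treatment, depth and sample number limit small differences, most of all for SNHG5, SNHG12 and SNHG15, which had 94 to 254 counts per stable-line condition. The count of genes called in siEHMT1 (19) was 12 by DESeq2, 84 with library size alone without the rRNA-like pseudogenes, 12 with no filter and 118 with the replicate block, and it ran from 38 to 110 when each sample was left out, where a group left with 1 sample is assumed to vary like the other. Of the members, 2 passed with the replicate block, SNHG3 (adjusted p = 0.00891) and SNHG12 (0.0352), and 0 to 1 when a sample was left out. At an unadjusted p under 0.05, 4 members passed by DESeq2 and 4 to 6 when a sample was left out. SNHG5 turned to -0.0059 with library size alone and ran from -0.14 to 0.30 when each sample was left out, and GAS5 ran from -0.062 to 0.35, neither called. The same-numbered siRNA samples shared no deviation, so the block is given for completeness. Genes called in Dox (298) came to 140 by DESeq2 and 1900 with the 16 columns and the replicate block, and ran from 114 to 501 when a line was left out. Members lower in every line (4) were 2 with library size alone and 4 to 6 without a line. SNHG1 stayed between -0.73 and -0.58 over the 12 alternatives in Dox and between 0.14 and 0.41 over the 13 in siEHMT1. The other Dox means ran from -0.60 to -0.44 (SNHG12), -0.40 to -0.25 (SNHG15), -0.27 to -0.11 (SNHG7), -0.16 to -0.05 (GAS5), -0.22 to -0.04 (SNHG3), -0.23 to -0.02 (SNHG6), -0.24 to -0.07 (ZFAS1), -0.10 to 0.05 (SNHG8) and -0.16 to 0.05 (SNHG5). Of 12 called genes outside the members (SLC3A2, NEAT1, MALAT1, RN7SL1, RN7SL2, RPSA, PRPF39, EIF4A1, RPS3A, RPL39, HNRNPA1 and TMPRSS2), examined in the same 12 settings after the data were seen, NEAT1 and MALAT1 kept their calls in all 12. The cause of these shifts was not tested.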
